A study of Rattus norvegicus with 18 samples.

Results

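In rat cerebral cortex after subarachnoid hemorrhage (SAH), bleeding into the space between the brain and its membranes, 9 genes were followed as targets of the transcription factor p53 or as genes of mitochondrial apoptosis. The genes were named by symbol: Cdkn1a, Mdm2, Ccng1, Gadd45a, Gadd45b, Bbc3, Pmaip1, Bax and Bcl2l11. Of these 9, 8 had a row under that symbol in the table of 30735 genes, and all 8 passed the filter on low counts that left 18444 genes for testing. Bbc3, which encodes the BH3-only protein PUMA, was not analysed here.

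p53 is held at a low level by the ubiquitin ligase MDM2 and is stabilized when DNA damage or other stress activates its kinases. It then drives genes that halt the cell cycle, such as Cdkn1a, genes that feed back on p53 itself, such as Mdm2, and BCL2 family genes that push the mitochondrion toward releasing cytochrome c. In that family, BH3-only proteins such as NOXA and BIM engage guardians such as BCL2, and the effectors BAX and BAK form pores in the outer mitochondrial membrane.

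The libraries came from the cortex of 18 adult Sprague Dawley rats, 6 in each of 3 groups, with 1 library per rat. In the SAH 1d and SAH 7d groups the bleed was made by intravascular perforation, in which a nylon filament passed up the internal carotid artery pierces a vessel at the base of the brain, and cortex was taken 1 or 7 days later. Sham rats had the same anesthesia and neck surgery without the perforation, so all groups share those steps, and the day on which sham cortex was taken is not given in the sources used here. The tissue is described as the whole cortex of the operated side in the study's methods and as both sides in the deposited labels, and no source used here states the rats' sex.

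Promoter sequences were available for 7 of the 9 genes, from RefSeq on the GRCr8 assembly, as 300 bases that run from 250 before to 50 after the start site. The windows below are shown because they hold the letters known for p53 or for stress-responsive factors, and they are written 5′ to 3′ on the gene's own strand. In the first pair, the capitals mark 2 adjacent p53 half-sites, with 1 letter off the p53 pattern. The Cdkn1a window lies at chr20:7150701-7150780 on the plus strand, with the pair at positions -201 to -182 from the start, and the Ccng1 window at chr10:25685069-25685126 on the minus strand, with the pair at -242 to -223.
Cdkn1a: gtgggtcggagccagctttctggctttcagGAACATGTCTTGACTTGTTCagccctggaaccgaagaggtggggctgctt
Ccng1: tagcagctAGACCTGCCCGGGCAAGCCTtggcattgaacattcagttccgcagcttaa
Such a pair, with at most 1 letter off, stood in 24 of 33469 promoters of the same length, or 0.0717%.

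In the next windows the capitals mark a single p53 half-site in Gadd45a, the FOXO letters GTAAACA in Mdm2 and Bcl2l11, and in Pmaip1 first the cyclic AMP response element letters and then an NF-kB site. They lie at chr4:97486808-97486877 (minus strand) for Gadd45a, chr7:55200964-55201030 (minus strand) for Mdm2, chr3:135819808-135819874 (plus strand) for Bcl2l11 and chr18:62255883-62255968 (plus strand) for Pmaip1.
Gadd45a: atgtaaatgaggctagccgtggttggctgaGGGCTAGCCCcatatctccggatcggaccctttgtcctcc
Mdm2: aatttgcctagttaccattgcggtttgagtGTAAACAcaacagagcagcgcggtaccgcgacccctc
Bcl2l11: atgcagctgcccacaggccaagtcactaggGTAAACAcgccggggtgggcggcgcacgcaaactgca
Pmaip1: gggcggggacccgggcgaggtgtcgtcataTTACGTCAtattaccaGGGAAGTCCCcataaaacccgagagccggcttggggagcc
The shares of all promoters that held these letters on either strand were 7.98% for the p53 half-site, 3.78% for GTAAACA, 3.25% for TGACGTNA (the cyclic AMP response element) and 4.18% for the NF-kB site. The AP-1 letters TGANTCA, found in 7.33% of promoters, were in none of the 7 windows, and Gadd45b held none of the letters searched. The half-site is part of the adjacent pair, so those searches overlap. The well-known p53 elements of Mdm2 and Gadd45a lie in introns, outside such windows, and a match in these letters describes the sequence and not a bound site.

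The deposited counts summed to between 27.3 and 38.3 per library in units of 1e+06 (median 30.7), and the lowest count of any of the 8 genes in any library was 120. Levels are given as counts per 1e+06 counts of a library (CPM), scaled by edgeR's TMM factors, and compare libraries for 1 gene. Libraries stood apart in both SAH groups, and their numbers are those of the deposited columns. SAH 1d-3, the deepest library, had summed levels of 502 CPM over 5 monocyte and macrophage markers and 64.6 CPM over 6 neutrophil markers, whereas no other library of the group passed 125 and 14.9 CPM. SAH 7d-5 had 8730 CPM of the same monocyte and macrophage markers where the next SAH 7d library had 281, 3900 CPM over 5 fibroblast markers where the next had 323, 1900 CPM over 6 microglial markers where the next had 773, and 2450 CPM over 8 neuronal markers, the lowest of all 18 libraries. Neuronal markers were present in every library, and 7 of 8 fell at SAH 1d relative to sham, with summed levels of 6090 to 9600 CPM in sham, 5060 to 6120 in SAH 1d and 2450 to 8720 in SAH 7d. In bulk tissue, fewer cells of a type and less RNA per cell cannot be told apart. SAH 1d-3 was the highest library of its group for 7 of the 8 genes, as it was for 33.1% of all tested genes, and SAH 7d-5 was the highest of its group for 7 of the 8, as it was for 38.7% of all tested genes. Differences of the 8 genes are therefore also given without these libraries, and those of other genes where leaving out 1 of them moved the fold by over 1.5 times.

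One day after SAH, 6 of the 8 genes were higher than in sham: Cdkn1a, Mdm2, Gadd45a, Gadd45b, Pmaip1 and Bax (edgeR quasi-likelihood test, Benjamini-Hochberg adjusted p under 0.05 over all tested genes). Of all tested genes, 14.9% passed in that direction and 10.5% in the other. Cdkn1a, Gadd45a, Gadd45b and Pmaip1 also rose by at least 2-fold, the size that with the adjusted p defines a differentially expressed gene (DEG), which held for 5.57% of all tested genes. The median difference of the 8 genes on the log2 scale was 1.10, against 0.01 over all tested genes. Cdkn1a, Pmaip1, Gadd45a and Gadd45b also appear in pathway lists that the study drew from these same libraries, so their place here is not independent evidence of their direction. Ccng1 and Bcl2l11 did not pass.

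**Figure D1:**
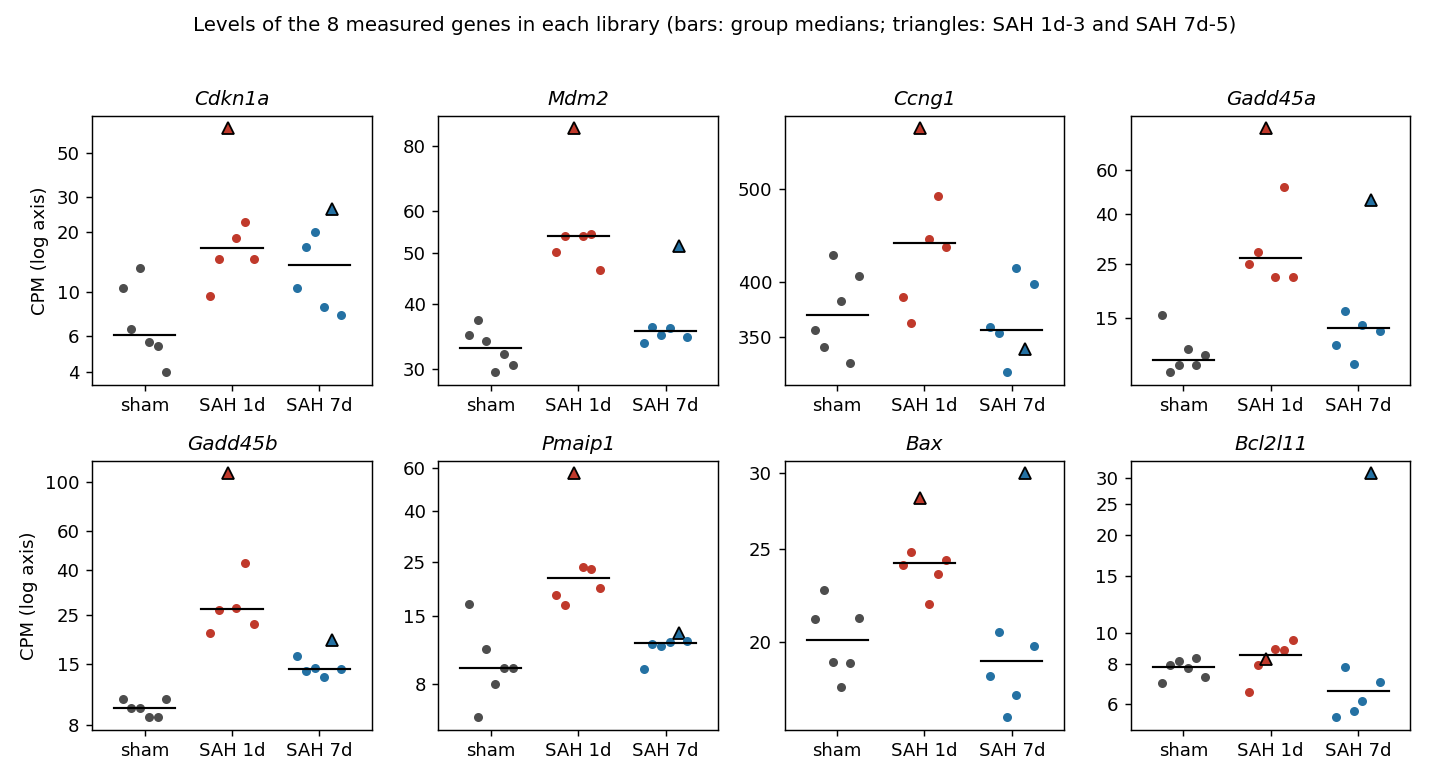
Level of each of the 8 measured genes in CPM (vertical log axis) in the 6 sham, 6 SAH 1d and 6 SAH 7d libraries, 1 point per library, with a bar at each group's median and triangles for the libraries SAH 1d-3 and, at day 7, SAH 7d-5. For Mdm2, Gadd45a and Gadd45b every SAH 1d point lies above every sham point, and SAH 7d-5 lies at 31.0 CPM of Bcl2l11 while the other SAH 7d libraries reach at most 7.80 CPM.

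Cdkn1a encodes p21, the cyclin-dependent kinase inhibitor through which p53 arrests the cell cycle. Its level ran from 3.96 to 13.2 CPM in sham (median 6.11), from 9.56 to 66.6 CPM in SAH 1d (median 16.75) and from 7.73 to 26.1 CPM in SAH 7d (median 13.7). Only SAH 1d-1 fell inside the sham range, and 5 of 6 SAH 1d libraries exceeded every sham library. Cdkn1a rose at SAH 1d by 1.71 ± 0.45 on the log2 scale (SE, 6 against 6 libraries, edgeR adjusted p = 0.0158). Without SAH 1d-3, whose 66.6 CPM was 2.96 times the next library, the difference was 1.09 with an edgeR adjusted p of 0.0141. It was also the most variable of the 8 genes within sham, where the highest library was 3.34 times the lowest.

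Mdm2 encodes the ligase that ubiquitinates p53. The sham libraries lay between 29.6 and 37.2 CPM (median 33.0), the SAH 1d libraries between 46.3 and 86.3 CPM (median 53.8) and the SAH 7d libraries between 33.65 and 51.55 CPM (median 35.4). The lowest SAH 1d library exceeded the highest sham library, and 5 of the 6 SAH 7d libraries were below every SAH 1d library. Mdm2 rose at SAH 1d by 0.80 ± 0.14 (log2 scale, SE, edgeR adjusted p = 0.00163), and by 0.64 without SAH 1d-3 (edgeR adjusted p = 5.55e-05). Its 5 lower SAH 1d libraries spanned a range of 1.17-fold, the narrowest such range for a gene that passed other than Bax.

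Ccng1 encodes cyclin G1, a p53 target that recruits a phosphatase to MDM2. It was the most abundant of the 8 genes per length, with 98.0 to 123 fragments per kilobase and 1e+06 mapped reads (FPKM) in sham. The CPM ranged from 329 to 426.5 in sham (median 369), from 363 to 578 in SAH 1d (median 439) and from 322 to 413 in SAH 7d (median 356). The groups overlapped, with 4 of 6 SAH 1d libraries above every sham library. The SAH 1d difference from sham was 0.27 ± 0.11 on the log2 scale (edgeR adjusted p = 0.0972), or 0.18 without SAH 1d-3 (edgeR adjusted p = 0.158). It passed the test on the FPKM values, where limma on log2(FPKM + 1) gave 0.37 with an adjusted p of 0.0196 and called 22.8% of all genes higher. On that FPKM scale the median of all genes was shifted upward by 0.09 at SAH 1d, and by 0.11 with a pseudocount of 0.1.

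Gadd45a and Gadd45b encode small stress sensors that bind p21 and the kinase MEKK4. Gadd45a is a classic p53 target, while Gadd45b is better known as a target of NF-kB. Gadd45a stood between 8.99 and 15.4 CPM in sham (median 10.1), between 22.0 and 89.1 CPM in SAH 1d (median 26.3) and between 9.68 and 45.5 CPM in SAH 7d (median 13.6). Gadd45b stood between 8.635 and 10.5 CPM in sham (median 9.56), between 20.9 and 109.6 CPM in SAH 1d (median 26.8) and between 13.1 and 19.4 CPM in SAH 7d (median 14.4). For both genes every SAH 1d library lay above every sham library, and SAH 1d-3 and then SAH 1d-5 were the highest of their group.

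Gadd45b showed the largest SAH 1d difference of the 8 genes, 2.13 ± 0.38 on the log2 scale (edgeR adjusted p = 0.00192), or 1.55 without SAH 1d-3 (edgeR adjusted p = 2.85e-05). Gadd45a rose by 1.86 ± 0.34 (edgeR adjusted p = 0.00244), or 1.44 without SAH 1d-3 (edgeR adjusted p = 0.00048). Mdm2 was the other of the 3 genes with no overlap between SAH 1d and sham, a pattern held by 7.89% of all tested genes. The sham libraries of Gadd45b spanned 1.22-fold, while its SAH 1d libraries spanned 5.24-fold.

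Pmaip1 encodes NOXA, a BH3-only protein that binds the guardian MCL1. Its level was 5.84 to 16.9 CPM in sham (median 9.24), 16.7 to 56.9 CPM in SAH 1d (median 21.5) and 9.16 to 12.9 CPM in SAH 7d (median 11.7). SAH 1d-2 fell just inside the sham range, below sham-1, and the other SAH 1d libraries exceeded every sham library. Pmaip1 rose at SAH 1d by 1.40 ± 0.32 (log2 scale, edgeR adjusted p = 0.00766), and by 1.02 without SAH 1d-3 (edgeR adjusted p = 0.00353).

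Bax encodes the pore-forming effector. It was the second most abundant of the 8 genes per length, at 18.7 to 23.7 FPKM in sham. Its CPM ran from 17.98 to 22.7 in sham (median 20.1), from 21.9 to 28.3 in SAH 1d (median 24.2) and from 16.7 to 29.95 in SAH 7d (median 19.1). SAH 1d-4 fell inside the sham range, and the other 5 SAH 1d libraries exceeded every sham library. The rise at SAH 1d was 0.28 ± 0.09 on the log2 scale (edgeR adjusted p = 0.0312), a 1.22-fold difference, and 0.23 without SAH 1d-3 (edgeR adjusted p = 0.0387). The call for Bax was the least firm of the 6: it was lost in 5 of the 12 edgeR fits that left out 1 library, those without sham-4 (adjusted p = 0.0715), sham-5 (0.0666), sham-3 (0.0649), SAH 1d-2 (0.0518) or SAH 1d-6 (0.0504). It was also lost without a filter on low counts (edgeR adjusted p = 0.0521) and with all 18 libraries in 1 fit (edgeR adjusted p = 0.126).

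Bcl2l11 encodes BIM, a BH3-only protein that FOXO factors are known to drive and that binds all the guardians. It was the least abundant of the 8 genes per length, at 1.22 to 1.62 FPKM in sham. Its CPM lay between 7.00 and 8.37 in sham (median 7.85), between 6.55 and 9.48 in SAH 1d (median 8.55) and between 5.47 and 31.0 in SAH 7d (median 6.58). The SAH 1d and sham libraries overlapped, and the difference was 0.10 ± 0.11 on the log2 scale (edgeR adjusted p = 0.504), and also 0.10 without SAH 1d-3. SAH 7d-5, the library with the high macrophage and fibroblast marker sums, held 3.97 times the Bcl2l11 level of the next SAH 7d library. The part of those cells in that value was not tested.

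**Figure D2:**
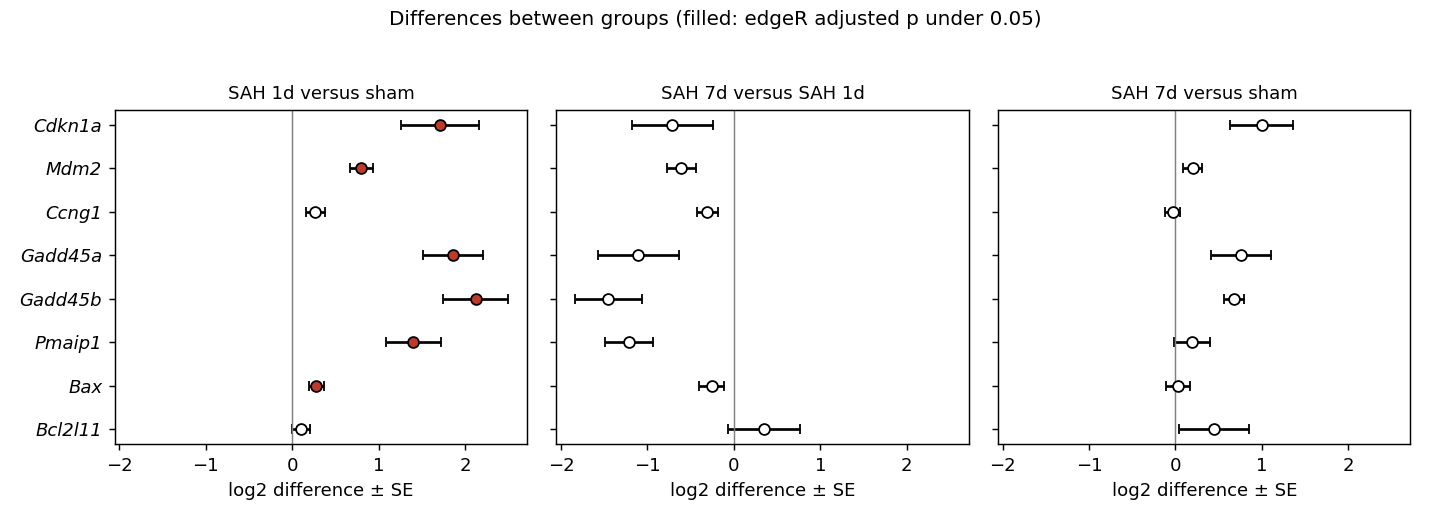
Difference between groups on the log2 scale (horizontal axis, with the standard error as a bar) for the 8 measured genes in the 3 comparisons, each of 6 against 6 libraries. Points are filled where the edgeR adjusted p is under 0.05, which holds for 6 genes in SAH 1d versus sham and for none in either other panel; Gadd45b has the largest difference at SAH 1d, 2.13.

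The SAH 7d group was compared with SAH 1d to see whether the early levels persisted, and with sham; each comparison shares a group of libraries with another. None of the 8 genes passed the edgeR test between SAH 7d and SAH 1d, where 1.08% of all tested genes were lower and 0.282% higher. At an unadjusted p under 0.05, 5 of the 8 and 14.7% of all tested genes differed. DESeq2 called 3 of them lower in SAH 7d (Mdm2, Pmaip1 and Gadd45b), against 3.63% of the genes to which it gave an adjusted p, and limma on log2(FPKM + 1) called 2 lower (Mdm2 and Pmaip1), against 2.31% of the genes in that fit. The median log2 difference of the 8 genes was -0.66, against 0.03 over all tested genes.

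Pmaip1 and Gadd45b had every SAH 7d library below every SAH 1d library, as did 2.11% of all tested genes. The highest SAH 7d level of Pmaip1, 12.9 CPM, compared with a lowest SAH 1d level of 16.7 CPM, and the log2 difference was -1.21 ± 0.28 (edgeR adjusted p = 0.0555). For Gadd45b the difference was -1.45 ± 0.38 (edgeR adjusted p = 0.0889). Mdm2 differed by -0.61 ± 0.17 (edgeR adjusted p = 0.0992) and Gadd45a by -1.10 ± 0.46 (edgeR adjusted p = 0.288). For Mdm2 and Gadd45a, SAH 7d-5 was the SAH 7d library that reached into the SAH 1d range.

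The edgeR calls depended on which libraries were in the fit. SAH 7d-5 was the highest SAH 7d library for 7 of the 8 genes, so leaving it out lowers their mean SAH 7d levels. The differences of Pmaip1 (-1.21 to -1.26) and Gadd45b (-1.45 to -1.54) moved little when SAH 7d-5 was left out. Why the calls changed was not tested. Without that library, 5 of the 8 genes passed as lower in SAH 7d than in SAH 1d, against 5.19% of all tested genes in the same fit. They were Gadd45a (-1.63 on the log2 scale, edgeR adjusted p = 0.0226), Gadd45b (-1.54, adjusted p = 0.0388), Pmaip1 (-1.26, adjusted p = 0.0251), Mdm2 (-0.72, adjusted p = 0.0129) and Bax (-0.40, adjusted p = 0.0218). With SAH 1d-3 left out as well, the same 5 genes passed, against 7.49% of all tested genes. The differences were then -1.20 for Gadd45a (adjusted p = 0.00667), -0.96 for Gadd45b (adjusted p = 0.00398), -0.87 for Pmaip1 (adjusted p = 0.00117), -0.57 for Mdm2 (adjusted p = 0.000303) and -0.36 for Bax (adjusted p = 0.013). With SAH 1d-3 alone left out, Pmaip1 and Gadd45b passed, against 1.53% of all tested genes. Cdkn1a did not pass in any of these fits, with -0.71 ± 0.47 over all 12 libraries (adjusted p = 0.521) and -0.33 without both (adjusted p = 0.49), and 4 of its 6 SAH 7d libraries lay inside the SAH 1d range.

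**Figure D3:**
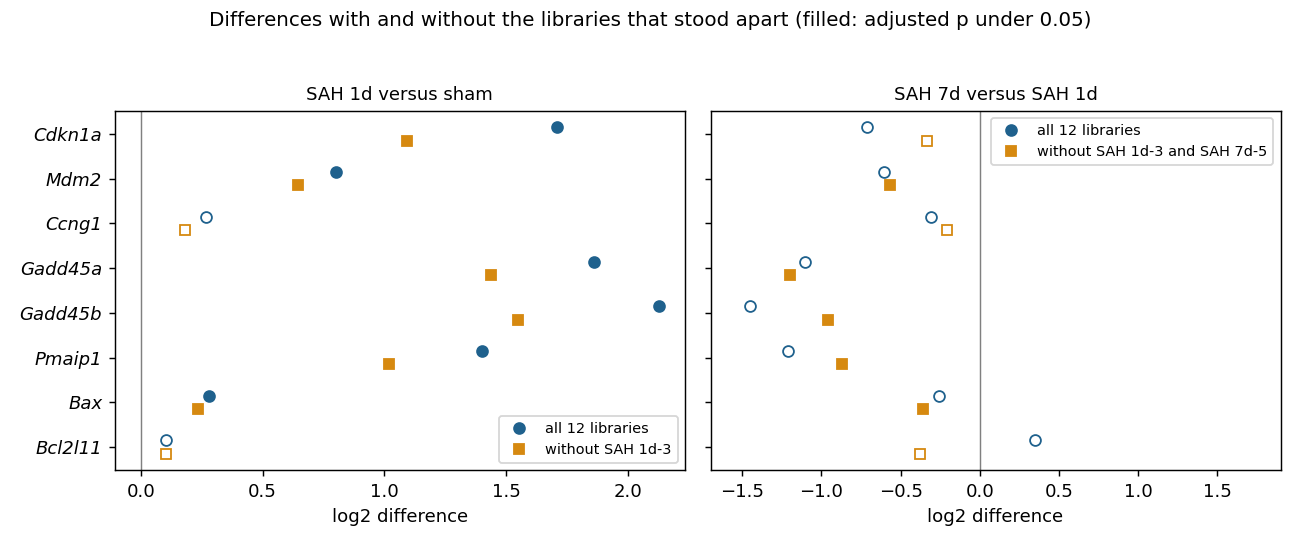
Log2 difference (horizontal axis) of the 8 measured genes for SAH 1d versus sham and SAH 7d versus SAH 1d, over all 12 libraries (circles) and without the libraries that stood apart (squares), filled where the edgeR adjusted p is under 0.05. The 6 genes called at SAH 1d stay filled in both fits, while in SAH 7d versus SAH 1d none is filled over all libraries and 5 are filled without the pair.

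Between SAH 7d and sham, edgeR called none of the 8 genes, and 0.0% of all tested genes passed in either direction. At an unadjusted p under 0.05, 3 of the 8 and 2842 of all 18444 tested genes differed. Gadd45b was the gene whose SAH 7d libraries, 13.1 to 19.4 CPM, all lay above its sham libraries, which reached 10.5 CPM, a pattern that 0.797% of all tested genes shared. Its difference was 0.68 ± 0.11 on the log2 scale, with an unadjusted p of 4.53e-05 and an edgeR adjusted p of 0.149. DESeq2 called it, with an adjusted p of 9.27e-06, as the only one of the 8, where 2.27% of the genes with an adjusted p were called higher, and limma on the FPKM values called none of the 8. Without SAH 7d-5 the edgeR difference of Gadd45b was 0.60 (adjusted p = 0.0948).

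Cdkn1a had the largest SAH 7d difference from sham of the 8 genes without passing the test. It differed by 1.00 ± 0.36 (edgeR adjusted p = 0.259), with 3 of 6 SAH 7d libraries above every sham library, and by 0.77 without SAH 7d-5 (edgeR adjusted p = 0.358). Gadd45a differed by 0.75 ± 0.35 (edgeR adjusted p = 0.322), and by 0.25 without SAH 7d-5. Mdm2, Pmaip1 and Bax differed by 0.20 ± 0.11, 0.19 ± 0.21 and 0.03 ± 0.14, and Ccng1 by -0.03 ± 0.09. Without SAH 7d-5 the log2 differences were 0.09 for Mdm2, 0.16 for Pmaip1 and -0.11 for Bax, whose sign turned, and -0.0099 for Ccng1. Bcl2l11 differed by 0.45 ± 0.41 with SAH 7d-5 and by -0.26 without it (adjusted p = 0.369), so that its sign rested on that library.

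The genes around these 8 were read from 7 lists of the p53 and BCL2 pathways, with 97 genes in all, of which 85 were tested. The lists were chosen with earlier results of these data known, so their shares are not independent evidence of direction. At SAH 1d, 28 of the 85 (32.9%) rose and 5 (5.88%) fell relative to sham, against 14.9% and 10.5% of all tested genes, and 16 were DEGs, all higher, against 5.57%. The median log2 difference of the 85 was 0.17, against 0.01 over all tested genes. SAH 7d versus sham had none that passed by edgeR, DESeq2 or limma. At an unadjusted p under 0.05 by edgeR, 20 of the 85 differed, against 15.4% of all tested genes. Without SAH 1d-3, all 16 DEGs still passed and 11 of them were still at least 2-fold higher. The fold of 5 of the 16, Sfn, Gadd45g, Atf3, Bcl2a1 and Birc3, moved by over 1.5 times without that library.

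**Figure D4:**
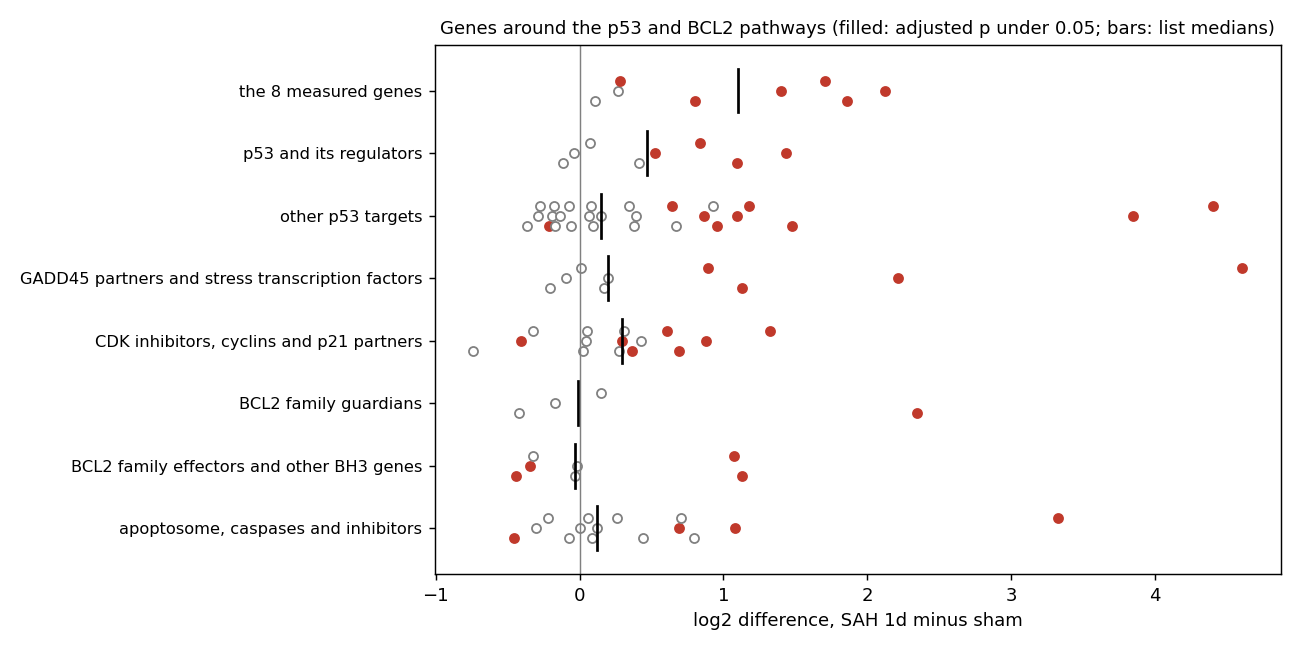
Log2 difference, SAH 1d minus sham (horizontal axis), of each tested gene, arranged by list, with filled points for an edgeR adjusted p under 0.05 and a bar at each list's median. The 8 measured genes have a median of 1.10, the lists of BCL2 family guardians and effectors have medians of -0.01 and -0.03, and the largest single differences are those of Atf3 and Gdf15.

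Of the 8 tested genes for p53 and its regulators, 4 rose at SAH 1d and none fell, against 14.9% and 10.5% of all tested genes. Chek2, a DNA damage kinase, rose by 1.09 ± 0.26 on the log2 scale (edgeR adjusted p = 0.00889, or 0.134 with all 18 libraries in 1 fit). Tp73, a p53 relative also expressed in choroid plexus and ependyma, had means of 1.01 and 0.374 CPM, a difference of 1.43 ± 0.49 (edgeR adjusted p = 0.046). That call was lost in 8 of the 12 fits without 1 library, those without SAH 1d-1, SAH 1d-4 or SAH 1d-6 or any sham library but sham-1, with edgeR adjusted p of up to 0.122. Beside it, 3 of 5 choroid plexus markers rose at SAH 1d, with sums of 3.74 to 69.7 CPM in sham and 9.03 to 1050 CPM in SAH 1d, and their part in the Tp73 value was not tested. Atm, whose kinase phosphorylates p53, had 28.3 CPM in sham and 27.6 CPM in SAH 1d (edgeR adjusted p = 0.84).

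Of 27 tested genes in the list of other p53 targets, 8 rose and 1, Pmm1, fell, against 14.9% and 10.5% of all tested genes. Sesn2, a sestrin that restrains mTORC1, rose by 1.48 ± 0.17 (edgeR adjusted p = 0.000133), from 14.2 to 17.3 CPM in sham to 27.9 to 68.3 CPM in SAH 1d. Phlda3, which restrains AKT, rose by 0.86 ± 0.08 with the smallest adjusted p of the list, 3.91e-05. The largest differences of the list were in genes near 0 in sham. Gdf15, a secreted stress cytokine, rose from a mean of 0.0816 CPM in sham to 1.76 CPM in SAH 1d, 4.40 ± 0.74 on the log2 scale (edgeR adjusted p = 0.001475). Sfn, which encodes the 14-3-3 sigma protein, rose from 0.179 to 2.62 CPM, 3.85 ± 0.63 (edgeR adjusted p = 0.00121). SAH 1d-3 held 7.86 CPM of Sfn and the other SAH 1d libraries 1.29 to 1.75 CPM, and without it the difference was 3.10 (edgeR adjusted p = 0.000224).

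Death receptor gene Fas rose by 1.10 ± 0.22 (edgeR adjusted p = 0.00403, or 0.0626 with all 18 libraries in 1 fit) and the nuclease gene Aen by 1.18 ± 0.22 (edgeR adjusted p = 0.00267). Among the genes of this list that did not pass were Zmat3 and Plk2, with log2 differences of 0.08 ± 0.10 and 0.09 ± 0.14, picked after their values were seen because both are established p53 targets. In all, 18 of the 27 did not pass in either direction.

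In the list of GADD45 partners and stress transcription factors, 4 of 9 genes rose, against 14.9% of all tested genes. Gadd45g, the third GADD45 gene, rose by 2.21 ± 0.50 (edgeR adjusted p = 0.00721) from a mean of 9.08 CPM to 41.8 CPM. SAH 1d-3 (124 CPM) and SAH 1d-5 (54.6 CPM) carried that mean, while the other 4 SAH 1d libraries lay at 14.7 to 24.1 CPM, and without SAH 1d-3 the difference was 1.48 (edgeR adjusted p = 0.00284). Atf3, a stress-induced factor, rose by 4.61 ± 0.63 (edgeR adjusted p = 0.000389), from 0.989 to 24.2 CPM, and by 3.95 without SAH 1d-3 (edgeR adjusted p = 6.52e-05). Jun rose by 1.13 ± 0.22 and Ddit3, which encodes CHOP, by 0.89 ± 0.17, each with 6 of 6 SAH 1d libraries above every sham library. Gadd45g and Sesn2, too, appear in pathway lists of the study, as do Sfn, Birc3, Bak1 and Fas.

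Of 15 tested genes for cyclins, kinases, inhibitors and p21 partners, 6 rose and 1, Ccng2, fell, against 14.9% and 10.5% of all tested genes. Ccnd1, the D-type cyclin of early cell-cycle entry, rose by 0.88 ± 0.17 (edgeR adjusted p = 0.0028). Cdk6, at low means of 0.404 CPM in sham and 1.01 CPM in SAH 1d, rose by 1.32 ± 0.29 (edgeR adjusted p = 0.00592). Pcna, the replication clamp that p21 binds, rose by 0.61 ± 0.15 (edgeR adjusted p = 0.0135). Beside these genes, 4 of 6 proliferation markers rose, with sums of 9.59 to 26.2 CPM in sham and 18.1 to 34.5 CPM in SAH 1d. The part of dividing cells in the values of Ccnd1, Cdk6 and Pcna was not tested.

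Within the BCL2 family the guardians and the other pore and BH3 genes did not move as 1 group. Of 4 tested guardians, 1 rose, where 14.9% of all tested genes did. This was Bcl2a1, known from leukocytes, which rose by 2.35 ± 0.58 (edgeR adjusted p = 0.011). SAH 1d-3 held 25.8 CPM of it where the next SAH 1d library had 4.31 CPM, and 3 of 5 monocyte and macrophage markers and 2 of 3 tested neutrophil markers rose in the same comparison. Without SAH 1d-3 the Bcl2a1 difference was 1.33 (edgeR adjusted p = 0.00262), and the part of those cells in it was not tested. With all 18 libraries in 1 fit its adjusted p was 0.0961. Bcl2 had 1.38 CPM in sham and 1.03 CPM in SAH 1d (-0.42 ± 0.23, edgeR adjusted p = 0.203).

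Of the 7 tested effectors and other BH3 genes, Bak1 and Bid rose and Bnip3 and Bnip3l fell. Over all tested genes, 14.9% rose and 10.5% fell. Bak1, the partner effector of Bax, rose by 1.13 ± 0.12 (edgeR adjusted p = 6.48e-05), from 8.49 to 18.5 CPM, and Bid, which links death receptors to mitochondria, by 1.08 ± 0.16 (edgeR adjusted p = 0.000667). Bnip3 and Bnip3l, receptors for the removal of mitochondria, fell by 0.35 and 0.44 on the log2 scale (edgeR adjusted p = 0.00559 and 0.000505). All 6 SAH 1d libraries lay below every sham library for both genes, as they did for 5.41% of all tested genes.

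Among 15 genes for the apoptosome, caspases and their inhibitors, 3 rose and 1 fell, shares near the 14.9% and 10.5% of all tested genes. Birc3, which encodes the inhibitor cIAP2 and is an NF-kB target, rose by 3.33 ± 0.60 (edgeR adjusted p = 0.00215). SAH 1d-3 held 27.6 CPM of Birc3 where the next library of its group had 8.59 CPM, and without it the difference was 2.54 (edgeR adjusted p = 0.0005). Casp2 rose by 0.69 ± 0.13 (edgeR adjusted p = 0.00293). Casp9, the initiator caspase of the apoptosome, fell by 0.46 on the log2 scale (edgeR adjusted p = 0.00711). Apaf1, which encodes the scaffold of the apoptosome, had 20.8 CPM in sham and 21.6 CPM in SAH 1d (edgeR adjusted p = 0.668), and was picked after its values were seen, as a core member of the list.

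Between SAH 7d and SAH 1d, 3 of the 85 genes (3.53%) fell and 1 (1.18%) rose, against 1.08% and 0.282% of all tested genes. Sfn fell by 2.84 on the log2 scale (edgeR adjusted p = 0.0321), or by 2.09 without SAH 1d-3, Sesn2 by 1.12 (edgeR adjusted p = 0.0377) and Phlda3 by 0.57 (edgeR adjusted p = 0.0234), while Bnip3l rose by 0.34 ± 0.08 (edgeR adjusted p = 0.0484). For Sfn and Phlda3 every SAH 7d library lay below every SAH 1d library. Without SAH 7d-5, 17 of the 85 passed, against 8.38% of all tested genes, and without SAH 1d-2, SAH 7d-2, SAH 7d-3 or SAH 7d-6 in turn 0 passed by edgeR. Of the 12 fits without 1 library, 7 lost the call for Sfn, 7 that for Phlda3, 9 that for Sesn2 and 11 that for Bnip3l.

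The ratio of the effector Bax to the guardian Bcl2, a common reading of the balance in this family, was computed per library from CPM. Since the CPM is not per length, the ratio compares libraries and not the 2 genes. On the log2 scale it was 3.91 ± 0.46 in sham, 4.60 ± 0.41 in SAH 1d and 3.99 ± 0.57 in SAH 7d (mean ± SD, n = 6 each). The SAH 1d libraries ran from 4.31 to 5.17 and the sham libraries from 3.25 to 4.63, so that the groups overlapped through sham-6.

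The SAH 1d ratio was 1.61-fold that of sham, with 6 of 6 libraries above the sham mean (2-sided exact permutation test of 924 splits, p = 0.0238, adjusted over the 3 comparisons p = 0.0714). It therefore did not pass the correction. The log2 difference was -0.60 between SAH 7d and SAH 1d (exact permutation p = 0.0541, adjusted p = 0.0812) and 0.08 between SAH 7d and sham (exact permutation p = 0.788). The smallest p that 924 splits can give is 0.00216. Bcl2 averaged about 1 CPM, so counting error of Bcl2 enters this ratio.

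**Figure D5:**
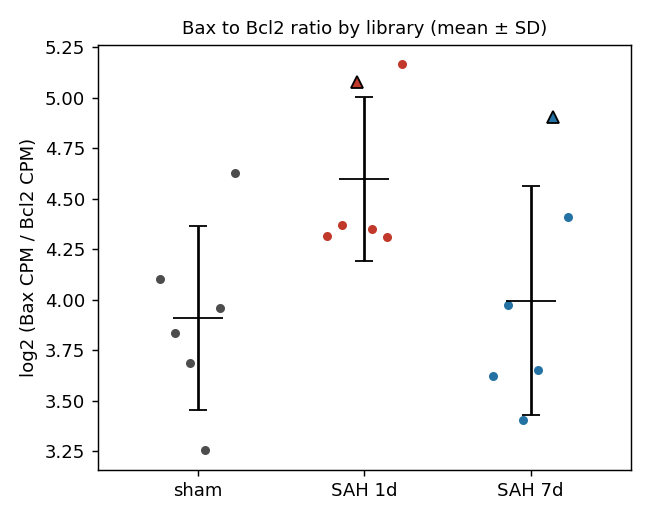
Log2 ratio of Bax CPM to Bcl2 CPM (vertical axis) in each library of the 3 groups, with the mean and SD as a line and bar (n = 6) and triangles for the libraries SAH 1d-3 and, at day 7, SAH 7d-5. The sham mean of 3.91 is exceeded by all 6 SAH 1d libraries, and sham-6, at 4.63, lies inside the SAH 1d range.

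Per length, the order of the 8 genes in sham by median FPKM was Ccng1 (109), Bax (20.5), Mdm2 (11.3), Gadd45a (7.67), Gadd45b (6.88), Cdkn1a (3.92), Pmaip1 (3.15) and Bcl2l11 (1.46). The sham FPKM ranges of Mdm2 (10.3 to 12.9), Gadd45a (6.90 to 10.9), Gadd45b (6.27 to 7.42), Cdkn1a (2.46 to 8.36) and Pmaip1 (2.01 to 5.35) overlapped between each gene and the next in that order. Such ranges do not compare genes within a rat. Within libraries, Mdm2 exceeded Gadd45a in 6 of 6 sham rats, Gadd45a exceeded Gadd45b and Gadd45b exceeded Cdkn1a in 5 of 6 each, and Cdkn1a exceeded Pmaip1 in 4 of 6. Ccng1, Bax and Bcl2l11 did not overlap with their neighbors on the FPKM scale. In SAH 1d, Gadd45a and Gadd45b had median FPKM of 21.8 and 20.9, beside 19.5 for Mdm2 and 26.5 for Bax. The SAH 1d FPKM ranges of those 4 genes overlapped.

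Each gene was also matched to the genes whose log2 CPM followed it most closely over the 18 libraries, among 14058 genes with a mean of at least 1 CPM. These coefficients are descriptions: the libraries share the group differences, and the coefficients include SAH 1d-3 and also SAH 7d-5. Among the genes nearest to Bax was Plaur (Pearson r = 0.928, 0.907 without those libraries), and among those nearest to Mdm2 was Eprs (0.975). Gadd45a was nearest to Sbno2 (0.978) and Stat3 (0.97), and Gadd45b to Ddit3 (0.964) and Cct3 (0.958). Without those libraries Eprs ranked 8 for Mdm2 (0.953), Stat3 12 for Gadd45a (0.938), and Ddit3 and Cct3 19 and 33 for Gadd45b (0.934 and 0.922).

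Cdkn1a was nearest to Tmem252 (r = 0.938) and Angpt2 (0.933), an angiopoietin of vessels, and both had Spearman coefficients near those values, 0.948 and 0.946. Pmaip1 was nearest to Ptar1 (0.945) and Podxl (0.94). Ccng1 was nearest to Atp11b (0.9) and Cdo1 (0.845). For Bcl2l11 the nearest were Acp2 (0.927) and Slc38a6 (0.924), and the second of these dropped to 0.5 and to rank 428 with those libraries left out. Podxl then ranked 28 for Pmaip1 (0.89), Cdo1 34 for Ccng1 (0.693) and Angpt2 5 for Cdkn1a (0.89), while Tmem252, Ptar1 and Acp2 ranked 1 and Plaur, Sbno2 and Atp11b ranked 2.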

How the data were processed

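The counts deposited by the authors are whole numbers per gene and library, made from filtered reads after alignment to the rat build Rnor_6.0, although the deposited labels list a mouse build. The FPKM values deposited by the authors are fragments per kilobase and 1e+06 mapped reads. The submitters' processing notes name fastp, HISAT2 and DESeq2 (1.16.1) without a role, and the counting program and its use of strand are not given there or in the study's methods.

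Groups came from the deposited labels, and columns matched the descriptions. Counts were tested with edgeR 4.0.16 (R 4.3.3): filterByExpr over all 18 libraries, TMM scaling, quasi-likelihood F test on the 12 libraries of a comparison, and Benjamini-Hochberg adjustment over 18444 genes. The threshold was an adjusted p of 0.05, with a log2 difference of 1 for a DEG. The p-values measure the spread between libraries, 1 per rat, which includes dissection and library preparation. Alternatives used DESeq2 1.42.0, DESeq2 size factors, no filter, at least 10 counts in every library, a replicate block, all 18 libraries in 1 fit, limma 3.58.1 on log2(FPKM + 1) or log2(FPKM + 0.1) with a mean FPKM minimum of 0.5 or unfiltered, each library left out, and SAH 1d-3 left out together with SAH 7d-5. The scripts were tested on simulated counts. Log2 CPM used a prior count of 2.

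The genes and lists were chosen with earlier results of these data known. The text names the 9 genes, each DEG of the 7 pathway lists, the gene with the smallest adjusted p of each list and comparison, and the 2 genes most correlated with each of the 8; some genes of these lists are not reported here. Promoter motifs were searched on both strands. A strand-unaware count cannot tell a gene from an overlapping antisense gene.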

Additional observations from a re-analysis of the deposited data

Results flagged for a closer look

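In 9 of 24 groups of 6 libraries, 1 library lay far from the rest of its group for 1 of the 8 genes, by the gap to its nearest neighbor as a share of the group's range (Dixon's test at 95%). That limit flags about 1 in 20 groups by chance if the groups are independent and normally distributed. The 8 genes share the same libraries and the CPM were not log-transformed, so the count cannot be set against that rate. SAH 1d-3 was the far library for Cdkn1a at 66.6 CPM (next 22.5), Mdm2 at 86.3 CPM (next 54.2), Pmaip1 at 56.9 CPM (next 23.8) and Gadd45b at 109.6 CPM (next 42.9). SAH 7d-5 was the far library for Mdm2 at 51.55 CPM (next 36.1), Bax at 29.95 CPM (next 20.5), Bcl2l11 at 31.0 CPM (next 7.80) and Gadd45a at 45.5 CPM (next 16.0). The remaining one was sham-1 for Gadd45a at 15.4 CPM (next 11.2). Sham-1 also had the highest microglial marker sum of its group, 330 CPM against at most 249 CPM. The same held for its endothelial (389 CPM, next 256), mural (181 CPM, next 124) and proliferation (26.2 CPM, next 12.3) marker sums. Its astrocyte, oligodendrocyte and T cell marker sums were the highest of sham as well. Sham-1 was the highest sham library for 26.6% of all tested genes.

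The SAH effect against the same sham libraries differed between 7 and 1 days, by the edgeR test of SAH 7d versus SAH 1d, for Sfn (-2.84 on the log2 scale), Sesn2 (-1.12), Phlda3 (-0.57) and Bnip3l (0.34). In that test 1.08% of all tested genes were lower and 0.282% higher. With 1 library left out, the call was lost in 7 of 12 fits for Sfn, 9 for Sesn2, 7 for Phlda3 and 11 for Bnip3l.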

How the results depend on the processing

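At SAH 1d versus sham, the alternatives left 5 to 7 of the 8 genes called and 23 to 39 pathway genes. With each library left out in turn these were 5 to 6 and 26 to 33, and the log2 Bax to Bcl2 difference was 0.56 to 0.83. For SAH 7d versus sham, the count for the 8 genes was 0, with 1 by DESeq2. For SAH 7d versus SAH 1d (0 of the 8 and 4 pathway genes), DESeq2 called 3 and 7, all 18 libraries in 1 fit 3 and 7, limma with either pseudocount 2 of the 8, at least 10 counts in every library 2 pathway genes, and leaving out SAH 1d-3 and SAH 7d-5 5 and 19. Leaving out 1 library gave 0 to 5 and 0 to 17, both highest without SAH 7d-5; pathway genes were 1 without SAH 1d-1, SAH 1d-4, SAH 1d-5, SAH 7d-1 or SAH 7d-4 and 2 without SAH 1d-6, and the count of the 8 was 2 without SAH 1d-3. The cause of these moves was not tested.

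The log2 Bax to Bcl2 difference between SAH 7d and SAH 1d ran from -0.79 (without SAH 7d-5, exact permutation p = 0.013) to -0.49, with -0.69 without SAH 7d-6 (exact permutation p = 0.0455) and -0.69 without both libraries that stood apart (exact permutation p = 0.0397). Against sham, the SAH 7d ratio changed sign to -0.098 without SAH 7d-5, alone or with SAH 1d-3, and to -0.047 without sham-4, within a range of -0.098 to 0.23. Signs that turned for single genes in SAH 7d versus sham were those of Ccng1 (0.021 by limma with a pseudocount of 1, filtered or not, 0.0211 with 0.1, 0.0069 without sham-3, 0.0004 without SAH 7d-3, down to -0.0738 without SAH 7d-4), Bax (-0.11 without SAH 7d-5, alone or with SAH 1d-3, -0.0037 without sham-4, up to 0.081 without SAH 7d-3) and Bcl2l11 (-0.26 without SAH 7d-5, alone or with SAH 1d-3, up to 0.58 without SAH 7d-1). In SAH 7d versus SAH 1d, Bcl2l11 turned to -0.38 without SAH 7d-5 and without both, to -0.0279 with the block and to -0.018 by limma with a pseudocount of 0.1, and was highest, 0.48, without SAH 7d-1. Of 526 values for the 8 genes under alternatives, 478 kept direction and side of the threshold.

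Same-numbered libraries of different groups deviated together with r of -0.252 to 0.197, and the replicate numbers were not taken to pair the rats. These values were not set against those of differently numbered libraries, and a shared batch was not tested. With the replicate block in the edgeR fit, 5 of the 8 genes (the call for Bax was lost, adjusted p = 0.0543) and 29 pathway genes were called for SAH 1d versus sham, 0 and 0 for SAH 7d versus sham, and 0 and 0 for SAH 7d versus SAH 1d. DESeq2 gave no adjusted p for 6 values. Among them were Bcl2l11 in the SAH 7d comparisons, and Sfn and Bcl2a1 in SAH 1d versus sham. Counts of at least 120 per library leave the spread between libraries as the limit for the 8 genes. With 1 library per rat, that spread cannot separate rats from dissection or library preparation.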
